A study of Mus musculus with 9 samples.

Results

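Mouse collagen genes, the 44 genes of 55359 in the deposited table whose symbol has the form Col, a number, a and a number, were described in RNA-seq libraries of sorted melanocyte stem cells. Of these 44 genes, 28 had enough reads to pass the count filter and be tested, against 16051 genes of the whole table. Melanocyte stem cells, the reserve that renews pigment cells in hair follicles, were purified from skin by fluorescence-activated sorting. All animals were Dct-H2B-GFP KI/+ mice, which carry 1 knocked-in copy of a green fluorescent histone reporter at the melanocyte gene Dct. The 9 libraries made 3 groups of 3. One received vehicle (Vehicle), one received 5 Gy of ionizing radiation (IR), and one received DMBA, a polycyclic hydrocarbon that damages DNA after it is metabolised. The labels used here do not state the time between treatment and sorting, the dose or route of DMBA, or whether the IR animals also received vehicle. Nothing in them says that each replicate is another animal. The p-values below therefore measure the spread between these samples only, which may be technical.

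Collagens are matrix proteins built from chains wound around each other into a helix, as copies of 1 chain or as mixtures of related chains. Fibrillar collagens such as types I and III form the bulk of the dermis and are made by fibroblasts, type IV collagens form the sheet of the basement membrane, and fibril-associated collagens coat the surface of fibrils. Type XVII is a transmembrane collagen of the hemidesmosome, the junction that ties basal epithelial cells to the basement membrane, and in mouse hair follicles the collagen XVII made by epithelial stem cells is needed to maintain melanocyte stem cells.

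The libraries held between 6938406 and 8156905 counts. Summed FPKM (counts scaled by exon length and library total) of 10 melanocyte markers lay between 1520 and 2150. Of these markers, 9 had a mean of at least 1 FPKM, and Oca2 averaged 0.551. Transcripts of basal keratinocytes were present too. Their 12 markers summed to 1530 to 2190 FPKM in Vehicle libraries, 893 to 3610 FPKM in IR libraries and 2590 to 3880 FPKM in DMBA ones. The sum of 10 differentiated epidermis markers ranged from 503 to 611 FPKM in Vehicle, from 221 to 1480 after IR and from 1240 to 1870 after DMBA. For 9 hair follicle stem cell markers the ranges were 51.8 to 54.5, 57.9 to 75.9 and 57.5 to 66.5 FPKM, so that every treated library was above every Vehicle library, with Nfatc1 the largest term at a mean of 29.1 FPKM. Markers of 12 dermal fibroblast genes summed to only 2.44 to 4.76 FPKM. Fbn1 made up most of that sum at a mean of 2.08 FPKM, while Twist2, Mfap5, Crabp1 and Lum had 0 counts in every library. Summed markers of endothelium (7 genes, 0.07 to 1.13 FPKM), pericytes and smooth muscle (7 genes, 0.57 to 2.85 FPKM) and leukocytes (7 genes, 1.58 to 31.5 FPKM, mostly Cd74) were low, whereas those of 8 Schwann cell genes reached 65.4 to 83.5 FPKM. In bulk libraries such as these, fewer cells of a type and less RNA per cell cannot be told apart.

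Collagen RNA in these libraries was concentrated in 3 genes, and none of the 3 encodes a chain of the large dermal fibrils. Col12a1, Col17a1 and Col16a1 together took 93.4% of all collagen counts, and collagen genes as a whole took between 0.58 and 0.718% of a library. Only 16 of 44 members averaged at least 1 FPKM over the 9 libraries, and between 29 and 39 members had any count in a given library.

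**Figure D1:**
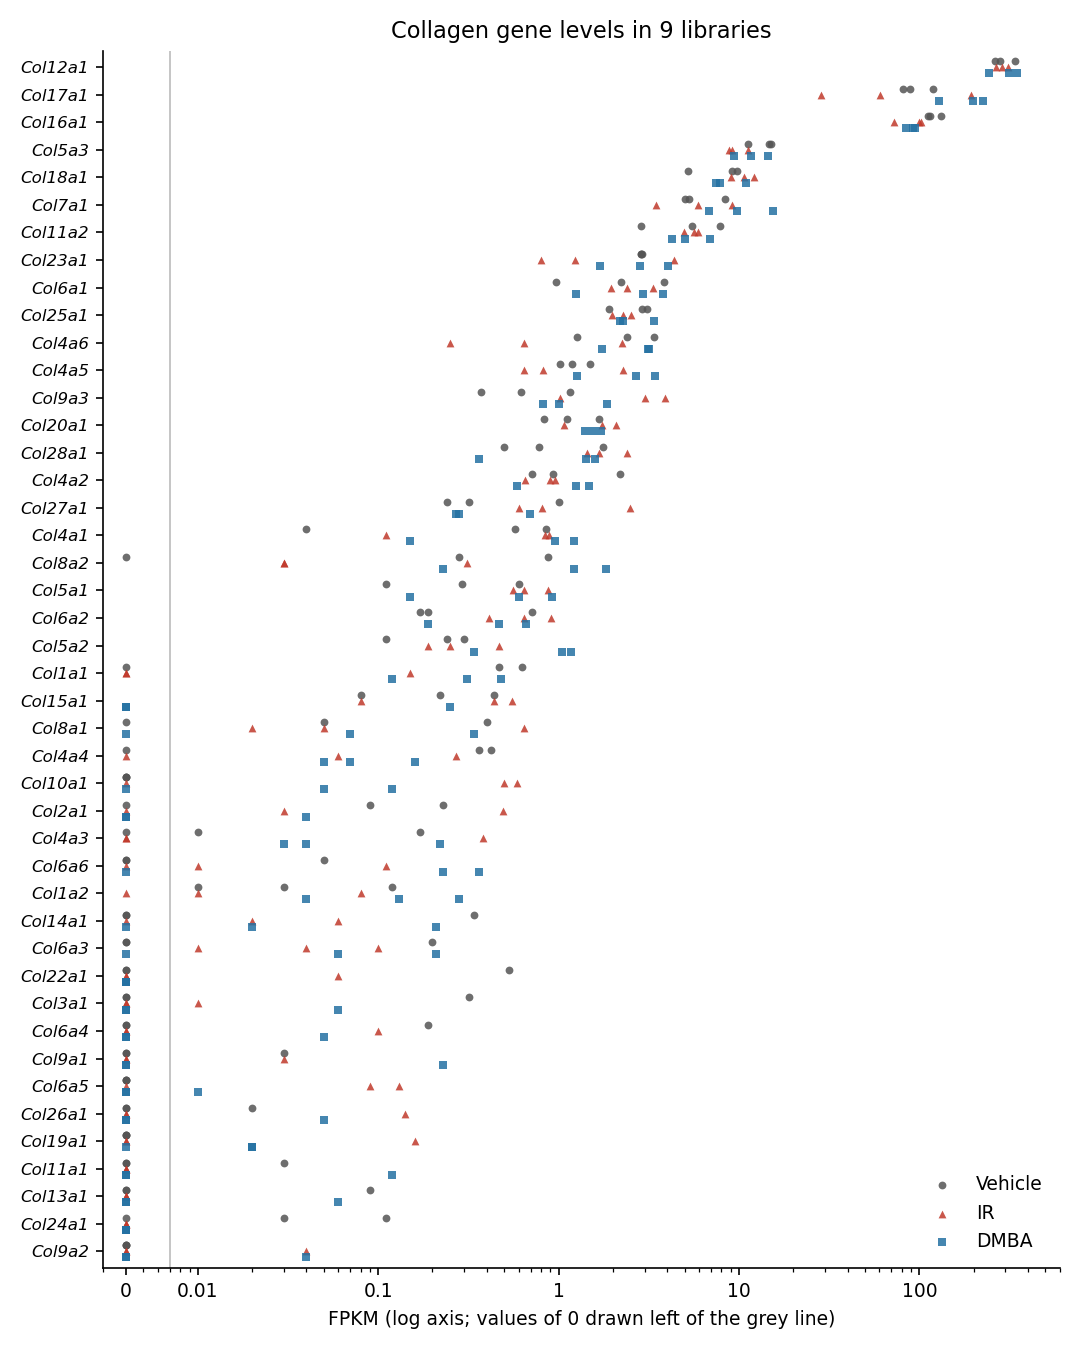
Level of each of the 44 collagen genes in each of the 9 libraries, in FPKM on a log axis, ordered by the mean, with values of 0 drawn left of the grey line; circles are Vehicle, triangles IR and squares DMBA libraries. Col12a1, Col17a1 and Col16a1 stand above the rest, and the IR libraries of Col17a1 spread from 28.6 to 194 FPKM.

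Col12a1 encodes the chain of collagen XII, a fibril-associated collagen that bridges fibrils and whose molecules are made of 1 kind of chain. The deposited table places it on the minus strand of chromosome 9, from 79506273 to 79626113. Its level was 340.4, 279 and 264 FPKM in Vehicle 1, 2 and 3. After IR the values were 264, 311 and 287 FPKM, and after DMBA 349, 315 and 244 FPKM. The groups overlapped throughout, and the highest library was only 1.43-fold above the lowest. At a mean of 295 FPKM it ranked 74th by level among all genes of the table, and it took 70.9% of collagen counts. Unlike FPKM, that share is not scaled by exon length, which was 15228 bases for Col12a1 and 6011 for Col17a1. Set against Dct, the melanin synthesis gene whose locus carries the sorting reporter, Col12a1 stood at 43.9 to 83.1% of the Dct FPKM.

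Col16a1 encodes the chain of collagen XVI, another fibril-associated collagen, which in skin lies near the junction of dermis and epidermis and binds integrins. The table places it on the plus strand of chromosome 4, from 129941633 to 129993076. Col16a1 stood at 114, 132 and 111 FPKM in Vehicle 1, 2 and 3. The IR libraries held 71.9, 102 and 99.5 FPKM, and the DMBA libraries 92.2, 84.6 and 95.02 FPKM. Each IR and each DMBA library was below the lowest Vehicle library. Neither difference was called (edgeR adjusted p = 0.501 after IR and 0.651 after DMBA). Of all genes tested, 13.9% did not overlap between IR and Vehicle libraries and 13.7% between DMBA and Vehicle libraries.

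Col17a1, the gene of the transmembrane hemidesmosome collagen described above, was placed on the minus strand of chromosome 19, from 47634783 to 47680533. It stood at 88.6, 81.2 and 119 FPKM in the Vehicle group, at 194, 28.6 and 60.9 FPKM in IR libraries and at 129, 226 and 198 FPKM in DMBA ones, each in the order 1, 2 and 3. The 3 IR libraries covered almost the whole range of the study, and IR 1 stood 6.78-fold above IR 2. Its spread over the 9 libraries, a coefficient of variation of 54.4%, compares with 12.3% for Col12a1 and 17.5% for Col16a1.

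**Figure D2:**
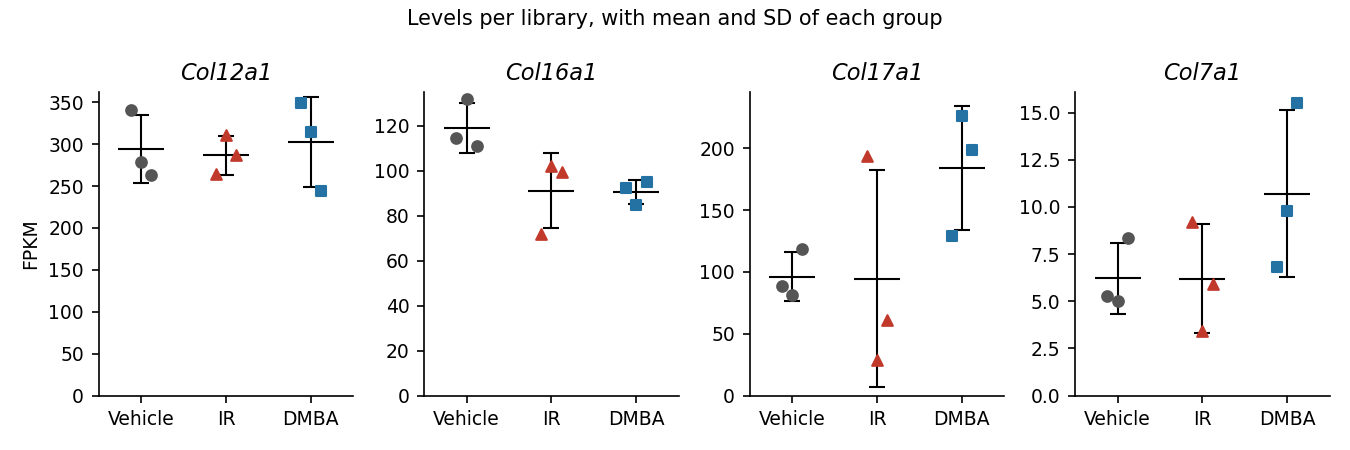
FPKM of Col12a1, Col16a1, Col17a1 and Col7a1 in each library, with horizontal lines for the mean of 3 libraries and bars for the SD; each panel starts at 0 and has its own scale. Col12a1 overlaps between all groups, Col16a1 is highest in the Vehicle libraries, and Col17a1 and Col7a1 vary most within the IR and DMBA groups.

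The promoters of Col16a1 and Col17a1 are shown as those of 2 abundant members. Col16a1 lay below Vehicle in every treated library, though this was not called, and Col17a1 ranged most widely of the abundant members. RefSeq promoter windows on GRCm38.p6 were matched for 35 of 44 members. The table's own coordinates come from a build not given in the sources used here and do not match GRCm38.p6 positions. The 250 bases before the annotated start are chr4:130047590-130047839 on the plus strand for Col16a1 and chr19:47692043-47692292 on the minus strand for Col17a1. They are written 5′ to 3′, and capitals mark the motif found in each, GGGCGG (the GC box bound by Sp1) in Col16a1 and TATAAA (the TATA box) in Col17a1.
Col16a1: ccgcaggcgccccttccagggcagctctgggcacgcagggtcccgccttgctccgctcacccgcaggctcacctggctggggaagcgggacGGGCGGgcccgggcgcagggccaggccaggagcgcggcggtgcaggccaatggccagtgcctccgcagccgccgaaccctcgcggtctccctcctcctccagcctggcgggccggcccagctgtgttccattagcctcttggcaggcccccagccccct
Col17a1: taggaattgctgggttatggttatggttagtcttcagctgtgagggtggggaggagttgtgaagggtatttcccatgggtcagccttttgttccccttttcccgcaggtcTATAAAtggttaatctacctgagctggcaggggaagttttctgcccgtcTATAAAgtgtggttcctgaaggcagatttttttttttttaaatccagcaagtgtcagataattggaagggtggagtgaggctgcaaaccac
The Col16a1 window was 75.6% G and C, and 3.61% of 32851 promoter windows of this length were as rich or richer. It held 1 GGGCGG and 0 TATAAA. The Col17a1 window was 46.0% G and C, and 28.4% of windows were as low or lower, with a median of 52.4%. It held 2 TATAAA and 0 GGGCGG. Both strands were searched, also for TGANTCA (AP-1) and CATGTG (the core bound by Mitf), and neither window held either of these. Over all windows GGGCGG was present in 32.7%, TATAAA in 12.4%, TGANTCA in 6.75% and CATGTG in 12.3%. The motifs do not overlap each other in these windows, and a match describes the letters only.

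Among chains of the hemidesmosome and anchoring zone, Col7a1 followed Col17a1 at a far lower level. Col7a1 encodes collagen VII, the chain of the anchoring fibrils under the epidermis. Its level was 5.28, 5.00 and 8.36 FPKM in Vehicle libraries, 9.19, 3.45 and 5.93 FPKM in IR libraries and 6.80, 9.77 and 15.5 FPKM in DMBA ones. DMBA 3 was the highest and IR 2 the lowest, and each pair of groups overlapped. Of the other transmembrane collagens, Col23a1 stood at 2.86, 2.91 and 2.87 FPKM in Vehicle libraries, 4.34, 0.80 and 1.23 in IR libraries and 1.69, 2.83 and 4.05 in DMBA ones. Its Vehicle libraries were nearly equal, while the IR libraries differed 5.42-fold. Col25a1, which in mouse is known from neurons that innervate muscle, stayed between 1.91 and 3.38 FPKM, and Col13a1 averaged 0.0167 FPKM.

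The basement membrane chains of type IV were low. Col4a6 and Col4a5, X-linked genes that lie head to head 1308 bases apart in the table and whose chains join in a basement membrane network, were the highest of the 6. Col4a6 was at 2.38, 1.26 and 3.37 FPKM in Vehicle libraries, 2.24, 0.25 and 0.64 in IR libraries and 3.16, 1.75 and 3.13 in DMBA ones. Col4a5 was at 1.19, 1.5 and 1.02 FPKM in Vehicle libraries, 2.28, 0.64 and 0.82 in IR libraries and 1.27, 2.67 and 3.43 in DMBA ones. For both genes IR 2 and IR 3 were below the lowest library of the other groups. Col4a2 and Col4a1, the chains found in nearly every basement membrane, averaged 1.07 and 0.622 FPKM. These 2 genes overlap by 22 bases on opposite strands in the table, and whether counting used the strand is not given in the sources used here. Col4a4 and Col4a3 averaged 0.154 and 0.0944 FPKM. Col18a1, a basement membrane collagen whose end fragment is endostatin, was at 9.80, 9.20 and 5.22 FPKM in Vehicle libraries, 12.2, 10.7 and 9.04 in IR libraries and 7.48, 10.9 and 7.88 in DMBA ones. It overlaps Slc19a1 on the opposite strand, which had 515 counts against 4400 for Col18a1. These groups overlapped too.

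The fibrillar class split between 2 minor chains that were present and the dermal chains, which were close to 0. Col5a3, the third chain of collagen V, was at 14.76, 15.03 and 11.29 FPKM in Vehicle libraries, 8.84, 11.28 and 9.14 in IR libraries and 14.5, 11.7 and 9.38 in DMBA ones. Its IR libraries all lay below the Vehicle libraries, the closest pair being 11.29 and 11.28 FPKM. Col11a2, a chain of collagen XI known from cartilage, was between 2.87 and 7.87 FPKM with overlapping groups. The chains that join them in known molecules were far lower, with means of 0.527 for Col5a1, 0.458 for Col5a2, 0.0167 for Col11a1 and 0.0978 for Col2a1. The same held for Col6a1, a chain of the type VI microfibrils, which averaged 2.52 FPKM beside 0.483 for Col6a2 and 0.0689 for Col6a3, and for Col9a3, which averaged 1.53 FPKM beside 0.0322 for Col9a1 and 0.00889 for Col9a2. Protein chains were not measured.

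Chains that define the fibroblast matrix were rare. Col1a1 and Col1a2, the chains of type I collagen, averaged 0.24 and 0.0778 FPKM, or 106 and 65 counts over all 9 libraries. Col3a1 had 29 counts in all and was at 0 in 6 libraries, and Col14a1, a fibril-associated collagen of the dermis, had 33 and was at 0 in 4. A listed 0 means that no read was counted, which still allows an expected count of up to 3 in that library. Col20a1 and Col28a1, the latter known from Schwann cell basement membranes in mouse, averaged 1.47 and 1.33 FPKM. Col20a1 shares its strand and position with 9230112E08Rik, which had 789 counts against 512, so its level is uncertain. Both genes overlapped between all groups, Col20a1 between 0.83 and 2.09 FPKM and Col28a1 between 0.36 and 2.41 FPKM. The remaining members averaged under 1 FPKM.

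After radiation no collagen gene passed the test. The quasi-likelihood test of edgeR, adjusted over all genes by the Benjamini-Hochberg method, called 0 of 28 members against Vehicle at an adjusted p under 0.05, where 0.735% of all genes tested were called. At an unadjusted p under 0.05 there were 3 of 28 members, against 8.26% of all genes. DESeq2 called 0 of 28 members and 1.56% of all genes, with 3 members at an unadjusted p under 0.05 and 2 left without an adjusted p. Limma on log2(FPKM + 1) called 0 of 16 members and 0.56% of all genes, with 2 at an unadjusted p under 0.05. The median log2 fold change was 0.03 over the members and 0.00 over all genes tested. In the same libraries Cdkn1a, the p53 target that encodes the cell cycle inhibitor p21, averaged 241 ± 22.6 FPKM after IR and 59.5 ± 6.68 in Vehicle (mean ± SD, n = 3; edgeR adjusted p = 4.15e-07).

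The members nearest to a difference after IR were of mixed classes. Col9a3, at 1.15, 0.62 and 0.37 FPKM in Vehicle and 3.91, 1.02 and 3.00 FPKM in IR libraries, differed by 1.89 ± 0.73 log2 units (fold change ± SE; edgeR adjusted p = 0.439). IR 2 lay inside the Vehicle range. Col16a1 averaged 91.1 ± 16.7 FPKM after IR and 119 ± 11.3 in Vehicle (mean ± SD, n = 3), a log2 fold change of -0.37 ± 0.15 with a 95% interval from -0.70 to -0.05 (edgeR adjusted p = 0.501). Col5a3 differed by -0.48 ± 0.21 log2 units (edgeR adjusted p = 0.569). These last 2 were the only members of the 28 whose IR and Vehicle libraries did not overlap, where 13.9% of all genes tested did not overlap. Col27a1, a fibrillar chain known from cartilage, was at 0.24, 1.01 and 0.32 FPKM in Vehicle and 0.81, 0.60 and 2.48 in IR libraries (log2 fold change 1.33 ± 0.67, edgeR adjusted p = 0.642). Col12a1 differed by -0.02 ± 0.15 on the log2 scale, with a 95% interval from -0.33 to 0.29.

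Radiation results for the epithelial members depended on IR 1, whose basal keratinocyte sum of 3610 FPKM was the highest of its group. Col17a1 had a log2 fold change of -0.03 ± 0.41 (95% interval -0.90 to 0.83, edgeR adjusted p = 0.997) and Col4a6 of -1.17 ± 0.58 (edgeR adjusted p = 0.633). Without IR 1, edgeR called both lower than in Vehicle, Col17a1 at -1.08 (adjusted p = 0.0289) and Col4a6 at -2.38 (adjusted p = 0.0412). Those values left 2 IR libraries, whose basal keratinocyte sums of 893 and 1430 FPKM were below every Vehicle library. Over all 9 libraries, a score of the basal keratinocyte markers in each library was also fitted as a covariate. The log2 fold change was then -0.23 ± 0.13 for Col17a1 (edgeR adjusted p = 0.594) and -1.39 ± 0.44 for Col4a6 (adjusted p = 0.172). That fit was not run without IR 1, so the part of keratinocyte RNA in the calls made without IR 1 was not tested. Col7a1 differed by -0.00 ± 0.32 on the log2 scale.

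**Figure D3:**
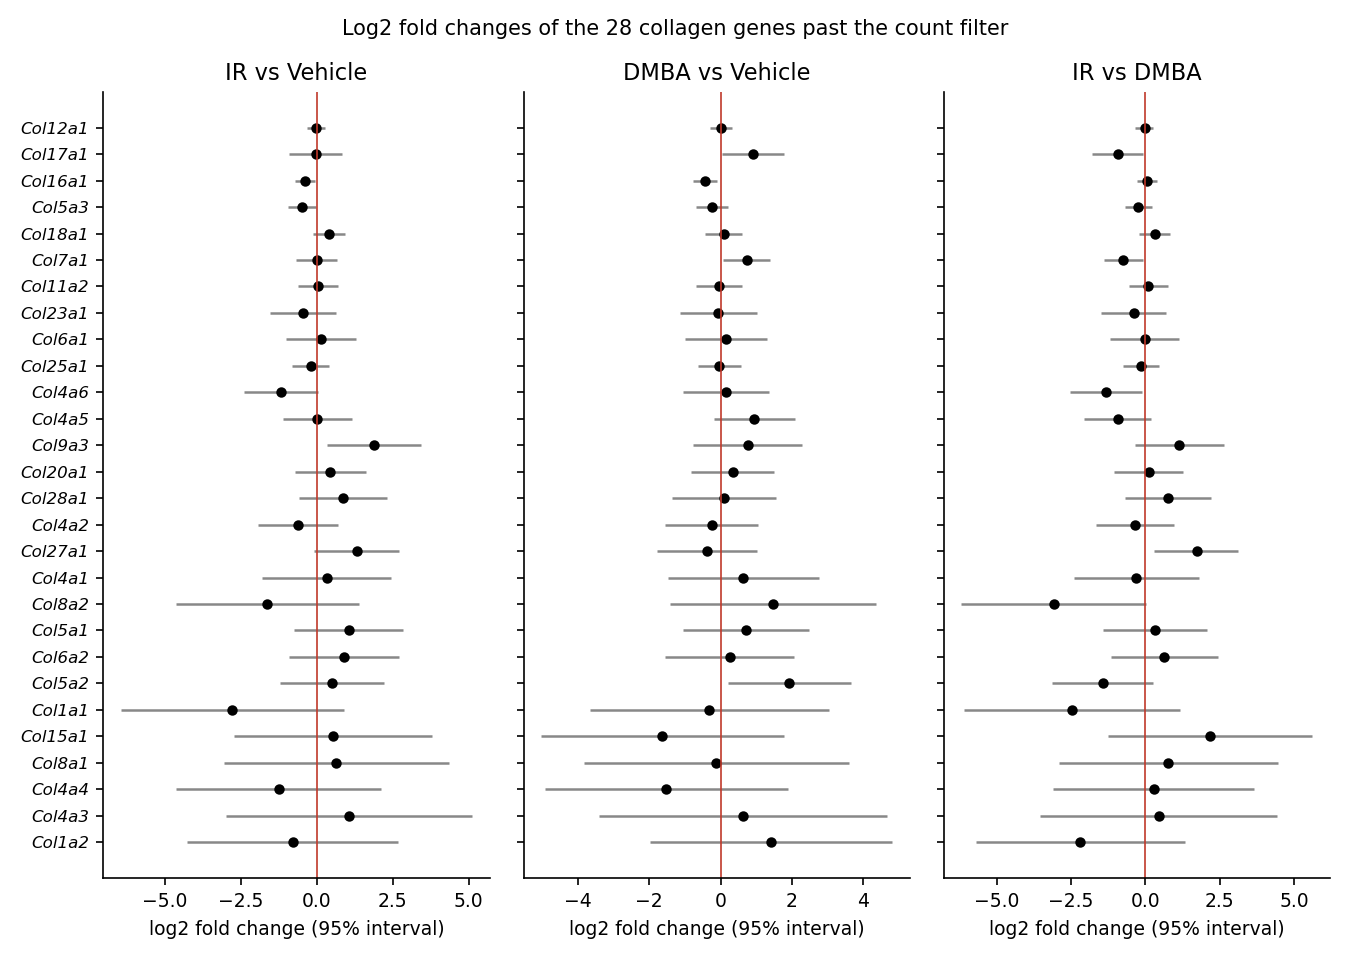
Log2 fold changes of the 28 tested collagen genes with 95% intervals, for IR against Vehicle, DMBA against Vehicle and IR against DMBA, ordered by mean level; the red line is no difference. Intervals are narrow for the abundant Col12a1 and Col16a1, and widen to several log2 units for members near 0.

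After DMBA no collagen gene passed the test either, and the members nearest to a difference were again of mixed classes. EdgeR called 0 of 28 members against Vehicle, where 0.0374% of all genes tested were called, and 4 of 28 had an unadjusted p under 0.05, against 6.7% of all genes. DESeq2 called 0 of 28 members and 0.143% of all genes, with 3 members at an unadjusted p under 0.05. Limma called 0 of 16 members and 0.00651% of all genes, with 1 at an unadjusted p under 0.05. The median log2 fold change was 0.13 over the members and 0.01 over all genes tested. Cyp1a1, the aryl hydrocarbon receptor target that responds to such compounds, averaged 86.9 ± 24.6 FPKM after DMBA and 0.0633 ± 0.0231 in Vehicle (mean ± SD, n = 3; edgeR adjusted p = 7.15e-11). This comparison and that of IR share the 3 Vehicle libraries, so their values are not independent.

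Col17a1 averaged 184 ± 50 FPKM after DMBA and 96.2 ± 20.0 in Vehicle (mean ± SD, n = 3), a log2 fold change of 0.90 ± 0.41 with a 95% interval from 0.03 to 1.77 (edgeR adjusted p = 0.729). The 3 DMBA libraries were above the 3 Vehicle libraries. The call depended on the fit. Col17a1 was called at the same fold change when only the libraries of these groups were fitted (edgeR adjusted p = 0.038), and with no count filter (edgeR adjusted p = 1.18e-05). Basal keratinocyte RNA was higher in the same libraries, with sums of 2590 to 3880 FPKM after DMBA and 1530 to 2190 in Vehicle. So was RNA of differentiated epidermis, at 1240 to 1870 against 503 to 611 FPKM, whose part in the result was not tested. With the basal keratinocyte score of each library as a covariate the log2 fold change of Col17a1 was -0.11 ± 0.15 (95% interval -0.41 to 0.19, edgeR adjusted p = 0.996). The scores did not overlap, at -0.51 to 0.09 in Vehicle and 0.34 to 0.91 in DMBA libraries. Treatment and keratinocyte RNA therefore cannot be told apart in this comparison. Col7a1 differed by 0.74 ± 0.32 log2 units (edgeR adjusted p = 0.718), and 0.23 ± 0.27 with that covariate.

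Col16a1 averaged 90.6 ± 5.39 FPKM after DMBA (mean ± SD, n = 3), a log2 fold change of -0.43 ± 0.15 from Vehicle with a 95% interval from -0.76 to -0.11 (edgeR adjusted p = 0.651). With the basal keratinocyte covariate it was -0.21 ± 0.14, with a 95% interval from -0.50 to 0.09 (edgeR adjusted p = 0.996). Col5a2, a chain of collagen V, was at 0.24, 0.11 and 0.30 FPKM in Vehicle and at 0.34, 1.17 and 1.05 FPKM after DMBA (log2 fold change 1.93 ± 0.82, edgeR adjusted p = 0.717). Together with Col17a1 these were the 3 of 28 members whose DMBA and Vehicle libraries did not overlap, against 13.7% of all genes tested. Col4a5 differed by 0.95 ± 0.54 log2 units (edgeR adjusted p = 0.776) with overlapping groups, and Col12a1 by 0.01 ± 0.15, with a 95% interval from -0.30 to 0.32.

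Compared directly, IR and DMBA libraries did not differ in any collagen gene past the threshold. EdgeR called 0 of 28 members, where 0.978% of all genes tested were called, and 4 of 28 had an unadjusted p under 0.05, against 8.12%. DESeq2 called 0 of 28 members and 1.93% of all genes, with 4 members at an unadjusted p under 0.05 and 2 left without an adjusted p. Limma called 0 of 16 members and 0.579% of all genes, with 1 at an unadjusted p under 0.05. The median log2 fold change was -0.03 over the members and -0.02 over all genes tested. No member had IR and DMBA libraries apart, against 14.9% of all genes tested. Col27a1 was 1.72 ± 0.68 higher in IR on the log2 scale (edgeR adjusted p = 0.44), from 0.28, 0.27 and 0.69 FPKM after DMBA. Col17a1 differed by -0.94 ± 0.41 (edgeR adjusted p = 0.541), Col7a1 by -0.74 ± 0.32 (adjusted p = 0.507) and Col4a6 by -1.33 ± 0.58 (adjusted p = 0.539). Without IR 1, Col17a1 at -1.97 (edgeR adjusted p = 2.79e-05) and Col4a6 at -2.53 (adjusted p = 0.0112) were called lower in IR. The IR libraries left in that fit had basal keratinocyte sums of 893 and 1430 FPKM, against 2590 to 3880 in DMBA ones. With the basal keratinocyte covariate over all 9 libraries, Col17a1 differed by -0.12 ± 0.15 and Col4a6 by -0.66 ± 0.50, and neither was called. The part of keratinocyte RNA in the calls without IR 1 was not tested. With no count filter Col17a1 was called at -0.94 (edgeR adjusted p = 1.5e-06). Col8a2, a chain of the network under the corneal endothelium, was at 0.31, 0.03 and 0.03 FPKM in IR libraries and 0.23, 1.84 and 1.22 in DMBA ones (log2 fold change -3.09 ± 1.48, edgeR adjusted p = 0.623). The dose of DMBA and the time after either treatment are not stated, so the treatments may not be matched.

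Between libraries of the same group, Col17a1 varied with basal keratinocyte RNA and Col12a1 showed no such slope past the test. The score of each library was the mean log2 CPM of the 12 basal keratinocyte markers, none of them a collagen. It was -0.22, -0.51 and 0.09 in Vehicle libraries, 0.79, -1.41 and -0.54 in IR libraries and 0.34, 0.91 and 0.56 in DMBA ones, as a difference from the mean of all 9. A slope on this score was fitted beside 1 mean per group, and edgeR called 2 of 28 members, both positive, where 1.69% of all genes tested were called and 1.63% were positive. Col17a1 had a slope of 1.22 ± 0.09 log2 units per log2 unit of score (95% interval 1.03 to 1.41, edgeR adjusted p = 2.93e-08), the 2nd smallest p of 272 called genes. Leaving out IR 1, which with IR 2 spans most of the score, reduced the called genes from 272 to 29, and without IR 2 there were 87. Col17a1 was called in both cases, at 1.19 (edgeR adjusted p = 0.00308) and 1.2 (adjusted p = 9.16e-05). Its FPKM was between 19.9 and 29.0% of that of Krt14, a basal keratin, in every library, a 1.45-fold range, and between 7.64 and 53.8% of that of Dct.

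Col4a6 had a slope of 1.30 ± 0.33 (edgeR adjusted p = 0.0402), but was not called without IR 1, IR 2, IR 3 or Vehicle 3, nor in the 7 libraries that correlated best (slope 0.93, edgeR adjusted p = 0.773), and its share of the basal keratinocyte sum differed 5.5-fold between libraries. Col7a1 had a slope of 0.65 ± 0.17 (edgeR adjusted p = 0.0601) and was called without DMBA 2, DMBA 3 or Vehicle 1, at slopes of 0.70, 0.67 and 0.65. Col23a1 had one of 1.03 ± 0.30 (edgeR adjusted p = 0.0925). Col16a1 had a slope of -0.27 ± 0.09 (edgeR adjusted p = 0.197), opposite in sign to that of Col17a1. For Col12a1 it was -0.13 ± 0.09, with a 95% interval from -0.32 to 0.06 that does not reach that of Col17a1.

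**Figure D4:**
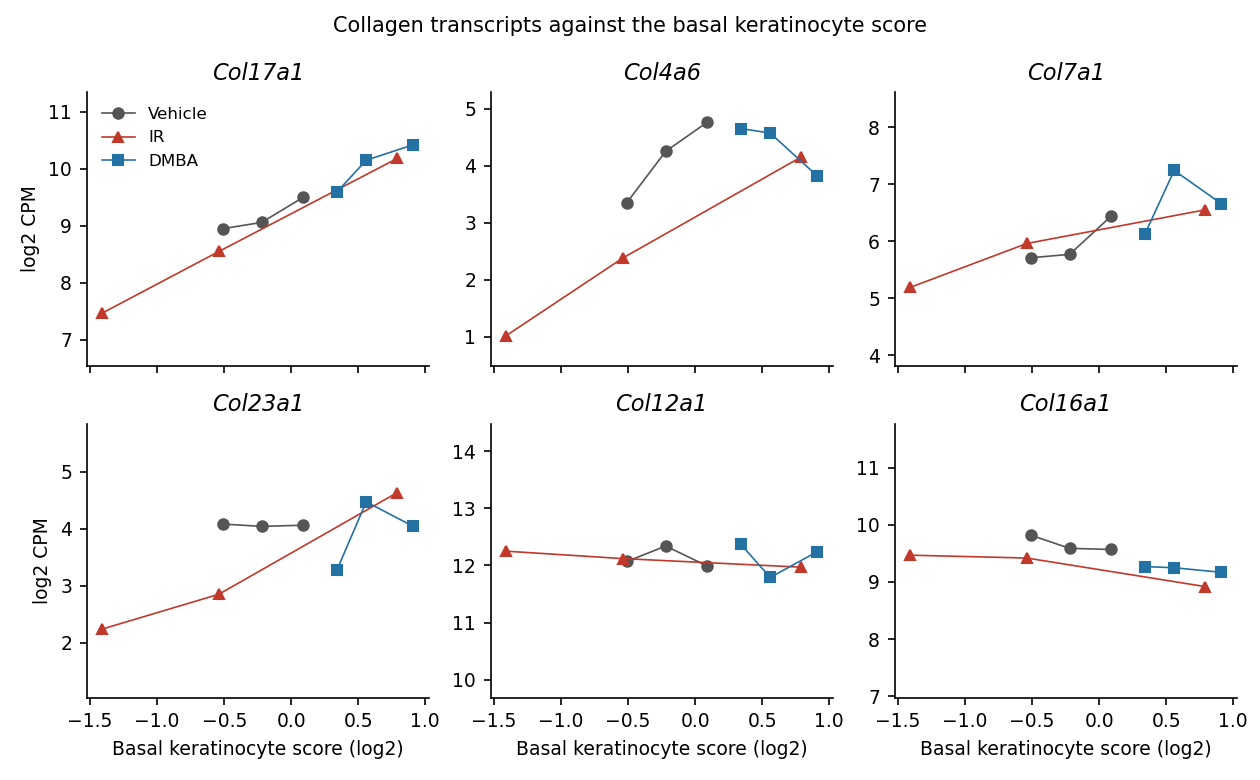
Log2 CPM of Col17a1, Col4a6, Col7a1, Col23a1, Col12a1 and Col16a1 in each library against the basal keratinocyte score, a log2 difference from the mean of 9 libraries; lines join the libraries of a group in order of score. Col17a1 climbs with the score in each group, and Col12a1 stays between 11.79 and 12.37 log2 CPM.

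The hemidesmosome partners of Col17a1 were tested in the same way. Of 8 listed genes, edgeR called 4 with a positive slope, where 1.63% of all genes tested were called with one. Not called were Plec (0.08 ± 0.10), Dst (0.12 ± 0.08), Lama3 (-0.04 ± 0.10) and Cd151 (0.16 ± 0.16). Those were the highest of the list, at means of 26.1 to 116 FPKM. Among the 4 called were Itgb4 (1.2 ± 0.14, adjusted p = 7.86e-06) and Itga6 (0.68 ± 0.11, adjusted p = 0.000801), the integrin that binds laminin in hemidesmosomes, and Lamb3 (1.02 ± 0.20, adjusted p = 0.00562), a laminin chain. These 3 genes lost the call without IR 1, with edgeR adjusted p of 0.175 for Itgb4, 0.417 for Itga6 and 0.809 for Lamb3, and Itga6 also lost it without IR 2 (edgeR adjusted p = 0.12). Between treatments edgeR, DESeq2 and limma each called 0 of these 8 genes in each comparison, with 0 at an unadjusted p under 0.05. Over all genes tested edgeR called 0.0374 to 0.978%, DESeq2 0.143 to 1.93% and limma 0.00651 to 0.579%. By edgeR 6.7 to 8.26% had such an unadjusted p. For Itgb4 (log2 fold change 0.83 ± 0.42) and Itga6 (0.52 ± 0.26) every DMBA library was above every Vehicle library. The others of the list overlapped there, and 13.7% of all genes tested did not.

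Of 66 tested genes in 6 lists of collagen-related functions, edgeR called 3 higher after IR than in Vehicle, which were Plod2, Hspg2 and Zfp469, where 0.735% of all genes tested were called. Serpinh1, the chaperone that binds procollagen, averaged 40.3 ± 4.72 FPKM in Vehicle libraries, 40.5 ± 3.18 in IR libraries and 42.3 ± 3.71 in DMBA ones (mean ± SD, n = 3). Among 20 tested folding and modification genes edgeR called 1 against Vehicle after IR, Plod2, whose enzyme hydroxylates lysines at the ends of collagen chains and so sets the kind of crosslink. Plod2 was at 5.39, 6.17 and 4.66 FPKM in Vehicle libraries, 10.9, 15.3 and 12.3 in IR libraries and 3.09, 3.44 and 4.76 in DMBA ones. Each IR library was above all others, with a log2 fold change of 1.26 ± 0.26 from Vehicle (edgeR adjusted p = 0.0221) and 1.82 ± 0.26 from DMBA (adjusted p = 0.000589). The call against Vehicle was lost without IR 2, IR 3, Vehicle 1 or Vehicle 3, at edgeR adjusted p from 0.0768 to 0.138. P3h4 and P3h1 had the next smallest p in both comparisons and were not called. Both went the other way, lower in IR. The log2 fold change of P3h4 was -1.67 ± 0.49 from Vehicle and -1.44 ± 0.49 from DMBA. For P3h1 it was -0.89 ± 0.38 and -0.67 ± 0.38.

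Among 14 tested basement membrane partners of type IV collagen, Hspg2, the core protein of perlecan, rose after IR and Pxdn, the peroxidase that crosslinks type IV collagen, was higher after IR than after DMBA. Hspg2 averaged 22.5 ± 2.89 FPKM after IR and 12.3 ± 1.32 in Vehicle (mean ± SD, n = 3; log2 fold change 0.89 ± 0.20, edgeR adjusted p = 0.0471). That call was lost without each of DMBA 2, IR 2, IR 3 and any Vehicle library, at edgeR adjusted p from 0.0528 to 0.228. Pxdn was at 19.1, 27.2 and 19.3 FPKM in IR libraries and 9.78, 10.6 and 5.96 in DMBA ones (log2 fold change 1.36 ± 0.23, edgeR adjusted p = 0.00342), with every IR library above every DMBA library. With the basal keratinocyte covariate the log2 fold change of Pxdn was 1.10 ± 0.24 (edgeR adjusted p = 0.0231).

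Of 9 regulators of collagen genes, edgeR called 1 after IR, Zfp469, a zinc finger gene linked in humans to brittle corneas. Its rise was known from earlier results when the list was written, so it is a description here. Zfp469 was at 1.87, 0.51 and 0.81 FPKM in Vehicle libraries, 17.9, 18.5 and 14.9 in IR libraries and 3.14, 0.74 and 1.91 in DMBA ones. Its log2 fold change was 4.01 ± 0.45 from Vehicle (edgeR adjusted p = 3.36e-05) and 3.20 ± 0.43 from DMBA (adjusted p = 0.000239). Smad3, which carries the signal of transforming growth factor beta, averaged 15.1 ± 3.45 FPKM in IR libraries and 6.85 ± 1.56 in DMBA ones (mean ± SD, n = 3; log2 fold change 1.18 ± 0.25, edgeR adjusted p = 0.0209), and lost the call without DMBA 2, DMBA 3 or IR 2, at adjusted p from 0.0533 to 0.153. Nor was Smad3 called between IR and DMBA with the basal keratinocyte covariate. Over the 6 lists DESeq2 called 6 of 66 genes in IR against Vehicle, adding Pxdn, Smad3 and Sp1, where it called 1.56% of all genes. Limma called 1 of 54, Zfp469, and 0.56% of all genes. For IR against DMBA edgeR called 4 of 66 and 0.978% of all genes, and DESeq2 called 7 of 66 and 1.93%, adding Lama4, Sp1 and Tgfb1. Limma called 2 of 54, Plod2 and Zfp469, and 0.579% of all genes. The lists were written with earlier results known, so these counts are a description.

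Of 7 collagen receptors and 8 trimming and crosslinking genes tested by edgeR and DESeq2, both tools called 0 in each comparison. Limma, which tested 3 and 6 of them, called 0 as well, and every tool had at most 1 of each list at an unadjusted p under 0.05 in a comparison. Over all genes tested edgeR called 0.0374 to 0.978%, DESeq2 0.143 to 1.93% and limma 0.00651 to 0.579%. By edgeR 6.7 to 8.26% of all genes had such an unadjusted p. Itgb1, the beta 1 integrin subunit shared by collagen-binding integrins, averaged 53.0 ± 11.5 FPKM in Vehicle libraries, 64.1 ± 8.20 in IR libraries and 55.0 ± 11.1 in DMBA ones (mean ± SD, n = 3). Ddr1, the receptor kinase for collagen, averaged 36.2 ± 7.23, 48.2 ± 9.68 and 42.4 ± 7.21 FPKM in the same order. Both overlapped between all groups. Ddr2, its relative on fibroblasts, averaged 0.112 FPKM, and the crosslinking enzyme gene Lox had 0 FPKM in every library. After DMBA edgeR called 0 of the 66 tested genes of the 6 lists, where 0.0374% of all genes were called, with 6 at an unadjusted p under 0.05, against 6.7% of all genes. By DESeq2 0 were called and 7 had such an unadjusted p, and by limma the numbers were 0 and 1 of 54.

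**Figure D5:**
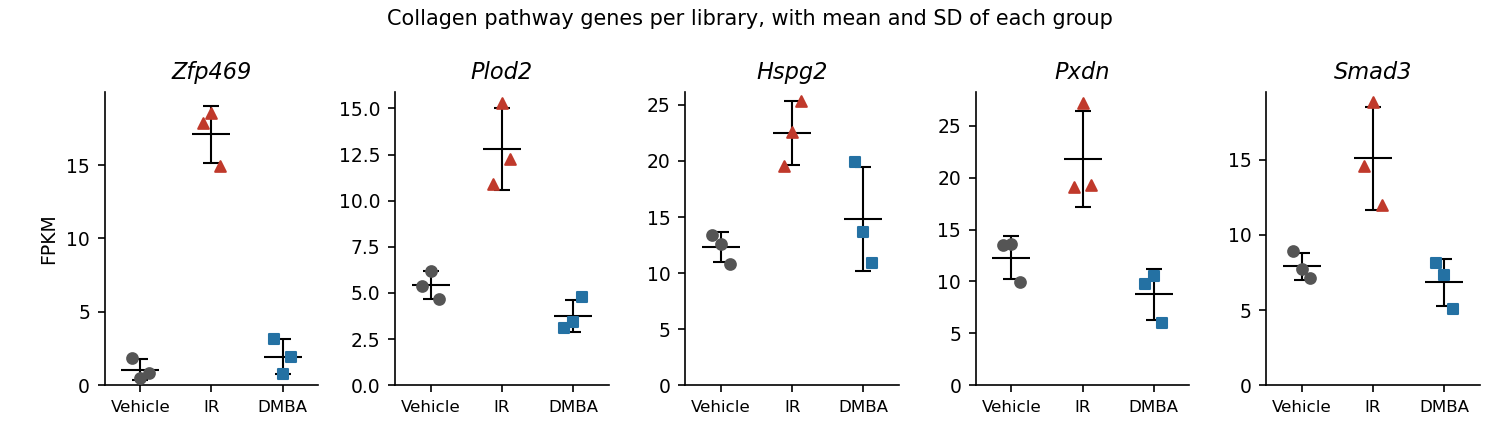
FPKM of Zfp469, Plod2, Hspg2, Pxdn and Smad3 in each library, with the mean of 3 libraries and the SD; each panel starts at 0. The IR libraries are the highest for Zfp469, Plod2, Pxdn and Smad3, and 1 DMBA library of Hspg2 reaches the lowest IR library.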

How the data were processed

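The deposited table holds raw whole-number counts for each gene and library, not normalized, and FPKM that the authors derived from those counts. FPKM recomputed from the deposited counts, exonic gene sizes and column sums differed by at most 0 at the deposited 2 decimals. HTSeq 0.6.1, HISAT2 2.0.1, cutadapt 1.9.1 and bcl2fastq 2.17.1.14 were used, per the submitters' processing notes, which give no role. The genome build, the annotation and the strand setting of the counting were not given in the sources used here. The library kit marks strand, per the labels' protocols. Groups came from the sample titles. Genes with no symbol took 0.121 to 0.175% of a library's counts. No 2 libraries of a group agreed within sampling noise (chi-square per degree of freedom 14.95 to 36.29).

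The counts went into edgeR 4.0.16, run in R 4.3.3 (filterByExpr, TMM scaling, 1 mean per group over all 9 libraries, two-sided quasi-likelihood test, Benjamini-Hochberg adjustment over 16051 genes, calls at an adjusted p under 0.05), after a check on simulated data. The biological coefficient of variation was 49%. The SE is the log2 fold change divided by the square root of F, and groups overlap where their FPKM ranges do. The basal keratinocyte score is the mean log2 CPM (prior count 2) of 12 marker genes, and its slope was fitted beside the group means. Alternatives were DESeq2 1.42.0, limma 3.58.1 on log2(FPKM + 1), also with pseudocounts of 0.1 and 5, on genes of at least 1 FPKM in 3 libraries, other filters and scalings, the replicate number as a block, the score as a covariate, and libraries left out. Fold changes by limma are on the log2(FPKM + pseudocount) scale, which understates changes of low genes. Counting error alone limits members with few counts.

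The members, lists and tests were chosen with earlier results of these data known. Members named were those with a mean of at least 1 FPKM, those called, the 5 with the smallest p per comparison and 12 fixed ones; of the pathway lists, those called, the 3 with the smallest p and 4 fixed genes. Some genes that the rule names are not reported here. Promoters and genome positions in them are from RefSeq on GRCm38.p6. Tables and plots used Python 3.11.15, pandas 2.3.3, numpy 2.4.6, scipy 1.17.1 and matplotlib 3.10.9.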

Additional observations from a re-analysis of the deposited data

Results flagged for a closer look

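For 4 of 66 tested genes of the collagen pathway lists, and for 0 of 28 collagen genes, IR and DMBA libraries differed in a direct test. This was edgeR's quasi-likelihood test, which called 0.978% of all genes tested. The lists were written with earlier results known, the rise of Zfp469 among them, so the count is a description. The difference was 3.20 on the log2 scale for Zfp469 (adjusted p = 0.000239), 1.82 for Plod2 (adjusted p = 0.000589), 1.36 for Pxdn (adjusted p = 0.00342) and 1.18 for Smad3 (adjusted p = 0.0209), each higher in 3 of 3 IR libraries than in every DMBA library. Adjusted p with edgeR over 1 library left out reached 0.004 for Zfp469, 0.00833 for Plod2, 0.0209 for Pxdn and 0.153 for Smad3. With the basal keratinocyte score as a covariate Smad3 was not called. The other genes were still called by edgeR, Zfp469 at 3.06 (adjusted p = 8.02e-05), Plod2 at 1.56 (adjusted p = 0.00531) and Pxdn at 1.10 (adjusted p = 0.0231). The dose of DMBA and the time after either treatment are not stated in the labels used here. Groups of 3 libraries are too small for a test of single outlying libraries.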

How the results depend on the processing

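The slope of Col17a1 on the basal keratinocyte score was called in all 14 alternatives run for it, at 1.13 to 1.27; DESeq2 and limma were not run for slopes. Over 41 results of single genes, 663 of 758 values under alternatives kept direction and side of the threshold, 53 lost the call, 12 gained it and 30 reversed. The number of genes called against Vehicle after IR was 118 and became 63 with 7 libraries (without Vehicle 2 and IR 2), 251 by DESeq2, 69 by limma with a pseudocount of 0.1, 49 by limma with no filter and 236 with no count filter, and lay between 76 (without Vehicle 3) and 131 with 1 library left out. After DMBA it was 6 and became 23, 1 (limma with pseudocounts of 0.1 and 1 and with no filter), 2 (limma with a pseudocount of 5), 159 with no count filter and 44 with only the libraries compared, and 2 to 25 with 1 left out, 25 without IR 1. For IR against DMBA it was 157 and became 310 by DESeq2, 73, 89 and 101 by limma with pseudocounts of 0.1, 1 and 5, 58 by limma with no filter and 371 with no count filter, and 96 (without DMBA 3) to 421 (without IR 1). The slope test called 272, 103 with 7 libraries and 29 (without IR 1) to 346 with 1 left out. Collagen genes called went from 0 to 1 after DMBA with no count filter or only the libraries compared, and to 1 for IR against DMBA with no count filter, each time Col17a1. With 1 library left out they were 0 to 2 after IR, 0 after DMBA, 0 to 2 for IR against DMBA and 1 to 3 for the slope. The slope count of 2 became 1 with 7 libraries and with Krt14 alone as the score, each time losing Col4a6. The cause was not tested.

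Several log2 fold changes reversed. With 7 libraries Col17a1 and Col7a1 after IR were 0.29 and 0.15, Col12a1 after DMBA -0.02 and Col16a1 between IR and DMBA -0.04. With the score as a covariate Col7a1 after IR was 0.03, Col17a1 after DMBA -0.11 (from 0.90) and Col16a1 between IR and DMBA -0.23, which was -0.01 in each limma fit. With 1 library left out Col17a1 after IR ranged from -1.08 to 0.39, Col7a1 from -0.38 to 0.28 and Col12a1 from -0.09 to 0.10. Col12a1 ranged from -0.11 to 0.15 after DMBA and from -0.18 to 0.09 between IR and DMBA, and Col16a1 from -0.04 to 0.22 there. Col16a1 kept its direction against Vehicle in all 21 alternatives after IR and after DMBA. With the score as a covariate its value after DMBA was -0.21 (from -0.43) and after IR -0.44 (from -0.37).

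The samples share only a replicate number: deviations of same-numbered libraries from their group means correlated at -0.087 to 0.042. With the replicate number as a block, 107, 5 and 142 genes were called in the 3 comparisons and 213 for the slope, and 0, 0, 0 and 2 collagen genes. Col7a1 after IR was 0.00 under the block, the slope of Col4a6 was 0.95 (edgeR adjusted p = 0.309) and that of Col7a1 was called (0.68, edgeR adjusted p = 0.0435). The call of Hspg2 after IR was lost (edgeR adjusted p = 0.0611). Depth limits members near 0, whose intervals span several log2 units.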
